A study of Homo sapiens with 10 samples.

Results

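Long cytosine-adenine (CA) dinucleotide repeats were examined in a map of nucleosome positions of human induced pluripotent stem cells (hiPSCs). A repeat was taken where the GRCh38 reference holds at least 15 uninterrupted CA units, or TG units, which are CA units on the other strand. Repeats had to lie on an autosome and at least 5000 bp from every transcript start of GENCODE release 44. Of 36609 such repeats on the autosomes, 27266 met the distance rule and are described here. They were set against 12465711 autosomal positions of a pooled list of 12921589. The cells came from 1 line, PB010.5, with a FUCCI cell cycle reporter in the EEF2 locus, and were permeabilised and digested as single cells for 5 min with micrococcal nuclease (MNase). The nuclease was used at 5 amounts, namely 0.5 U, 1 U and 3 U at the low end and 6 U and 10 U at the high end. From each digestion came 1 library, read as 150-bp pairs and again as 50-bp pairs, so that the 10 samples are 5 digestions in all. Positions cannot be traced to a digestion in the list. No error between samples could be estimated and no test was made. Instead, each value is given with its SD over the 22 autosomes, or with the number of autosomes on the same side.

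CA repeats are the most common dinucleotide microsatellites of the human genome, and their number of units changes readily by slippage of the polymerase during replication. They alternate purine and pyrimidine along each strand, which lets them leave the right-handed helix for the left-handed Z form under torsion. The strands are not alike: a CA strand holds A and C, its partner T and G, so that a repeat has a direction, and RNA copied as CA repeats is bound by the splicing factor hnRNP L.

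Among the repeats, the median was 18 units, the quartiles were 16 and 21 units, and the longest had 59. The CA strand was the plus strand at 13508 repeats and the minus strand at 13758. Introns held 15606 (57.2%) and regions more than 2 kb from any gene held 11050 (40.5%), while 335 lay in exons. The 200 bp on either side had a median GC content of 38.25%. Each repeat was turned so that its CA strand reads from left to right, with upstream meaning 5′ of the CA run. The sequences below show runs of different length and of different fate in the list, with 60 bases of the reference on either side. The CA run is in capitals and the flanks are in lower case. All are written 5′ to 3′ along the CA strand. The number of units is that of the reference, and the lengths carried by the cells were not measured here.
32 units, in an intron of CACNA1C, chr12:2277304-2277487, plus strand: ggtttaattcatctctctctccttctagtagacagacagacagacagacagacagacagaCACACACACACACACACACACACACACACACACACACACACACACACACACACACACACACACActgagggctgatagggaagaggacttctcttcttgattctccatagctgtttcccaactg
27 units, in an intron of JARID2, chr6:15404460-15404633, plus strand: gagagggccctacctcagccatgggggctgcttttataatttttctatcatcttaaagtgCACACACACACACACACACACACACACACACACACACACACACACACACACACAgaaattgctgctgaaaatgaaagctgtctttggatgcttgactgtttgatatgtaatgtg
23 units, intergenic, widest gap between midpoints, chr6:74771228-74771393, minus strand: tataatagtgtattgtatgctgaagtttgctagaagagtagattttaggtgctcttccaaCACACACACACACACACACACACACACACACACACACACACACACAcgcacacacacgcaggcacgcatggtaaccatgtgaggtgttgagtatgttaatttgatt
19 units, in an intron of ACTN2, chr1:236693118-236693275, plus strand: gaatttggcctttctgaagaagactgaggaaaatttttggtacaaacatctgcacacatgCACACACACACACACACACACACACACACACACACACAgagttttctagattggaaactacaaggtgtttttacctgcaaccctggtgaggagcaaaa
17 units, intergenic, highest score at a repeat, chr12:113048931-113049084, plus strand: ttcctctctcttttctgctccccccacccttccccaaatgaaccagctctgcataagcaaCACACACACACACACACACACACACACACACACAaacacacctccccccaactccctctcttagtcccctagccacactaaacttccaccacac

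Nucleosome midpoints formed a narrow maximum on the repeat with a minimum on either side, and the minimum upstream of the CA run was the deeper one. Density, the number of midpoints per bp, was taken as a multiple of that 700 to 1000 bp away on both sides. The maximum reached 1.36 times the flanks (SD 0.0880 over the 22 autosomes) 5 bp downstream of the centre. The upstream minimum, 75 bp from the centre, fell to 0.217 times the flanks (SD 0.0219), and the downstream minimum, at the same distance, to 0.611 times (SD 0.0496). Further out, density rose to 1.20 times the flanks 155 bp upstream and to 1.14 times 205 bp downstream. Lower maxima followed at 425, 615, 795 and 995 bp upstream, with heights of 1.06, 1.04, 1.02 and 1.03. Downstream they lay at 425, 605, 785 and 955 bp, with heights of 1.07, 1.05, 1.06 and 1.03. The SDs at these maxima were between 0.0421 and 0.0774, so that the heights were close to the flanks. Those from 785 bp outwards lie within the 700 to 1000 bp that served as flanks. At places 5000 bp to either side of the same repeats, density within 50 bp of the point was -0.01 and 0.03 on the log2 scale, and the upstream side exceeded the downstream side by 0.0059 and 0.0049.

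**Figure D1:**
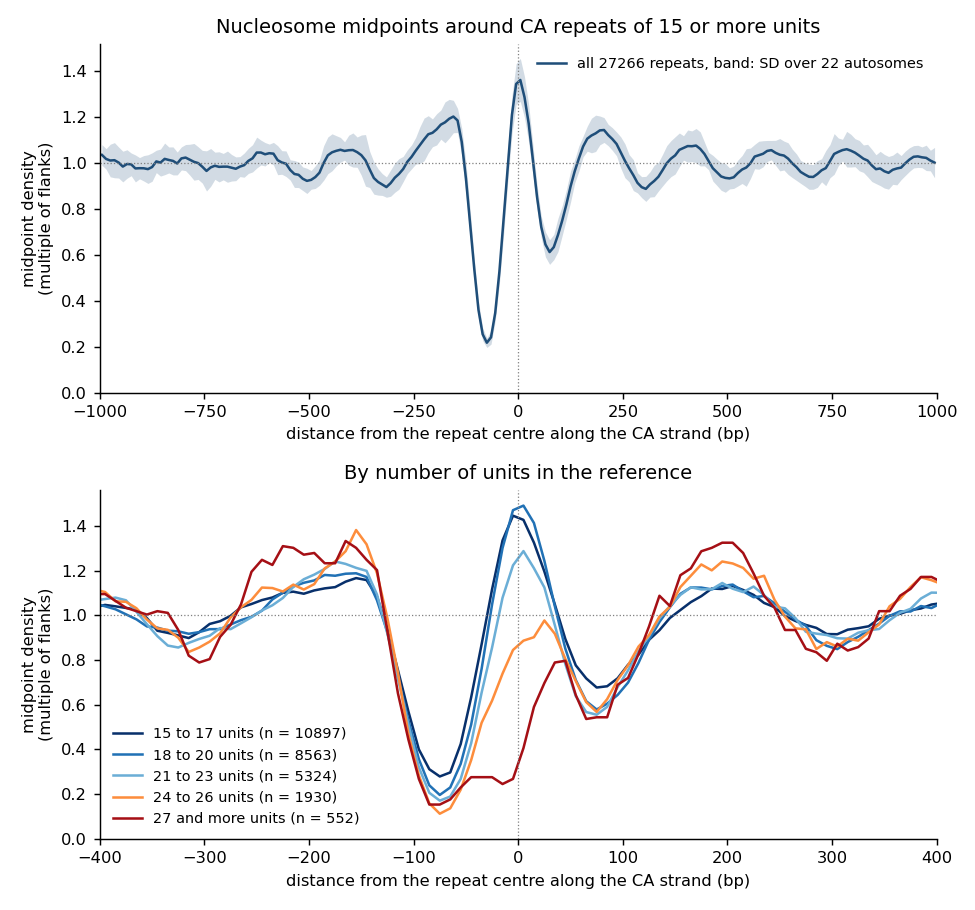
Density of nucleosome midpoints, as a multiple of the flanks, against distance from the repeat centre along the CA strand in bp. The upper panel shows all 27266 repeats with the SD over 22 autosomes as a band, and the lower panel shows 5 classes by number of units. The maximum at the centre is 1.45 times the flanks at 15 to 17 units and no maximum is left there at 27 and more, while the minimum 75 bp upstream is present in each class up to 26 units.

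Averaged over 50 bp on either side of the centre, the maximum and the slopes into the minima nearly cancelled. Midpoint density was 1.08 times the flanks, a log2 value of 0.11 (SD 0.0908), and was below that of the flanks on 4 of 22 autosomes. Its sign depended on the processing. The log2 value was 0.44 within 25 bp and -0.22 within 75 bp, and it was -0.26 when only positions at or above the median score of 14.8 were counted. By repeat, 50.4% of 27266 had a midpoint within 50 bp of the centre (95% Wilson interval 49.9% to 51.0%), against 44.3% of 2030904 grid points laid every 1000 bp under the same distance rule. The share was above that of the grid on 20 of 22 autosomes. Here and below, such counts set each autosome against the grid of all autosomes, not against its own. The Wilson intervals cover counting error only.

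Few repeats had a midpoint beside them. From 50 to 100 bp upstream, 5.02% of repeats had one (4.76% to 5.28%), and 14.1% had one at that distance downstream (13.7% to 14.5%), against 22.2% of grid points to one side. Both shares were below that of the grid on 22 of 22 autosomes. A midpoint upstream only was found at 1143 repeats and a midpoint downstream only at 3615, while 225 had both and 22283 had neither. Neighbouring midpoints in the list are never less than 100 bp apart, so that a midpoint near the centre leaves less room beside it. Among the 13511 repeats with no midpoint within 50 bp, the shares were 8.38% upstream and 24.3% downstream. Grid points with no midpoint within 50 bp had one on the lower side at 32.2% and on the higher side at 32.1%. The upstream side was therefore the emptier one also where the centre was free.

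The difference between the sides had a part tied to the CA strand and a part tied to the direction of the coordinates. Over all repeats, the log2 density from 50 to 100 bp was -2.21 upstream (SD 0.139) and -0.71 downstream (SD 0.122), a difference of -1.50 (SD 0.202) that was below 0 on 22 of 22 autosomes. A difference that turns with the strand gives mirror images, in genome coordinates, for repeats with CA and with TG on the plus strand. The profiles were not mirror images. With CA on the plus strand, the log2 density of the lower-coordinate side minus the higher was -0.73. With TG on the plus strand it was 2.32. The part that turns with the strand, the difference between these values divided by 2, was -1.53 (SD 0.250) and was below 0 on 22 of 22 autosomes. The part that does not turn, their mean, was 0.79 (SD 0.326) and was above 0 on 22 of 22. The centre maximum lay 15 bp towards lower coordinates in both orientations, at 1.44 times the flanks with CA on the plus strand and 1.65 times with TG on the plus strand. The cause of the part that follows the coordinates was not tested. With every midpoint moved by 10 bp towards higher coordinates, the strand part was -1.37 and the direction part 0.92. Moved by 15 bp, the values were -1.16 and 0.94, and moved by 20 bp they were -0.94 and 0.90. The strand part thus became smaller with the move, but stayed below 0 on 22 of 22 autosomes.

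**Figure D2:**
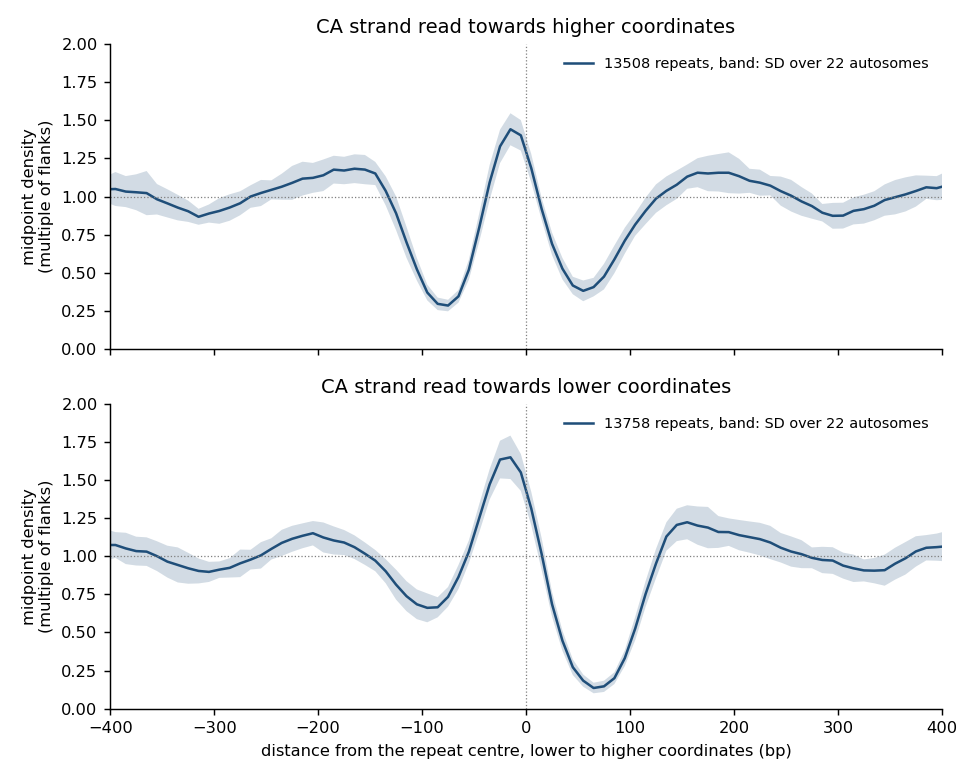
Midpoint density, as a multiple of the flanks, in genome coordinates, around 13508 repeats whose CA strand is the plus strand (upper) and 13758 whose CA strand is the minus strand (lower), with the SD over 22 autosomes as a band. The deeper minimum is on the left above, at 0.286, and on the right below, at 0.136, so that it stays upstream of the CA run, but the panels are not mirror images.

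Both parts were larger at longer repeats. The strand part was -1.27 (SD 0.327) at 15 to 17 units, -1.63 (SD 0.552) at 18 to 20 units, -1.91 (SD 0.779) at 21 to 23 units and -2.57 (SD 0.734) at 24 and more units, so that neighbouring classes differed by less than the larger of their SDs. It was below 0 on each autosome with midpoints on both sides in both orientations, which were 22, 22, 17 and 7 autosomes. The direction part was 0.42 (SD 0.296), 1.03 (SD 0.639), 1.25 (SD 0.783) and 1.92 (SD 0.513) in the same classes. It was above 0 on 21 of 22, 22 of 22, 15 of 17 and 7 of 7 autosomes. Without the split into parts, the log2 difference between the sides was -2.34 (SD 0.892) at 24 to 26 units. At 27 and more units it was -1.83 (SD 0.941). The longest class minus the shortest was -0.55, with a mean over autosomes of -0.062 (SD 1.04, below 0 on 7 of 11). At 37746 CA repeats of 8 to 14 units under the same rule, the strand part was -0.80 (SD 0.132, below 0 on 22 of 22 autosomes). The direction part was 0.03 there (SD 0.131, above 0 on 12 of 22). The shorter repeats thus had a strand part beyond the spread over autosomes and a direction part within it.

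The sequence beside the run went along with the size of the difference between the sides. Over the 100 bp next to the run, GC content was 38.7% on either side, while A made up 32.4% of the upstream bases and 32.0% of the downstream ones. A run of at least 8 A bases lay in those 100 bp at 4.62% of repeats upstream and 2.47% downstream. Runs of at least 8 T bases went the other way, at 1.28% upstream and 3.39% downstream. Over the 50 bp next to the run, GC content was 37.9% upstream and 38.6% downstream. Where GC content of the 100 bp on either side was within 5 percentage points, the log2 difference between the sides was -1.45 (SD 0.315, n = 9815). It was -0.65 (SD 0.482) at 8572 repeats with the upstream side richer in GC by at least that margin. It was -2.34 (SD 0.609) at 8879 repeats with the downstream side richer. In each of the 3 groups it was below 0 on 22 of 22 autosomes. Without an A or T run of 8 or more bases within 100 bp, the difference was -1.49 (SD 0.221, n = 24194). With no other CA units, in a row of 3 or more, within 50 bp, it was -1.51 (SD 0.239, n = 20491).

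Longer repeats had fewer nucleosome midpoints on them. Density within 50 bp of the centre was 1.16 times the flanks at 15 to 17 units (n = 10897) and 1.15 times at 18 to 20 units (n = 8563). It was 0.990 times at 21 to 23 units (n = 5324), 0.797 times at 24 to 26 units (n = 1930) and 0.486 times at 27 and more units (n = 552). The 2 shortest classes did not differ beyond the spread over autosomes, with log2 values of 0.21 (SD 0.0838) and 0.20 (SD 0.143). The log2 density of the longest class minus the shortest was -1.25 (SD 0.578) and was below 0 on 21 of 21 autosomes with a midpoint in both classes. The longest class had only 127 midpoints within 50 bp over both orientations. The fall was larger with CA on the plus strand, at -2.08 (SD 0.896), than with TG on the plus strand, at -0.74 (SD 0.662). Among repeats whose flanking sequence occurs once in the genome, it was -1.23.

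By single units, density was 1.16 times the flanks at 15 units (95% counting interval 1.11 to 1.21), 1.10 at 20 units (1.04 to 1.16) and 0.795 at 25 units (0.695 to 0.896). The 130 repeats of 30 and more units had 12 midpoints within 50 bp, or 0.188 times the flanks (0.0818 to 0.295). Upstream, density fell from 0.282 at 15 units (0.247 to 0.317) to 0.168 at 20 units (0.135 to 0.200). Downstream it was 0.717 at 15 units (0.661 to 0.773) and 0.529 at 20 units (0.472 to 0.587), and beyond 20 units it stayed between 0.465 and 0.637. At 24 to 26 units the highest density within 50 bp lay 25 bp downstream of the centre, at 0.977 times the flanks (SD 0.178). At 27 and more units no maximum was left within 50 bp, since the highest value, 0.796 times the flanks (SD 0.291), lay at the edge of that range. The upstream minimum was 0.279 at 15 to 17 units (SD 0.0404), 0.112 at 24 to 26 units (SD 0.0718) and 0.153 at 27 and more units (SD 0.105). From 60 to 300 bp upstream, the maximum was 1.17 times the flanks at 15 to 17 units (SD 0.0930), 1.38 at 24 to 26 units (SD 0.196) and 1.33 at 27 and more units (SD 0.453). Downstream it was 1.13 (SD 0.109), 1.24 (SD 0.231) and 1.32 (SD 0.335) in the same classes. These minima and maxima are extreme bins of the pooled profile, while their SDs are over the extremes of single autosomes. At 15 to 17 units the means of the latter were 0.257 (upstream minimum), 1.26 (upstream maximum) and 1.23 (downstream maximum). At 27 and more units they were 0.0670, 1.97 and 1.84. How much of the change with length comes from sparse counts was not tested.

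**Figure D3:**
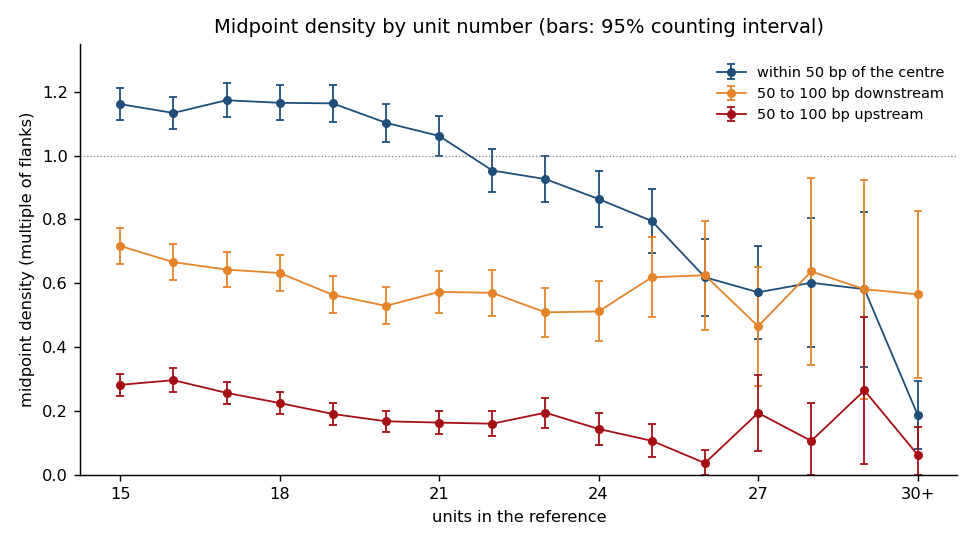
Midpoint density, as a multiple of the flanks, against the number of CA units in the reference, within 50 bp of the centre and from 50 to 100 bp on either side, with 95% counting intervals, ended at 0, as bars. The central density falls from 1.16 at 15 units to 0.188 at 30 and more, and the upstream density stays below the downstream density at each unit number.

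The repeat was more often bare when it was long. The centre lay in no 140-bp interval at 42.3% of repeats (41.7% to 42.9%), against 40.9% of grid points. The share was above that of the grid of all autosomes on 16 of 22 autosomes. By class the share was 38.4%, 39.2%, 47.1%, 56.4% and 70.3% from the shortest to the longest. The last of these was above the grid on 22 of 22 autosomes, and the first was above it on 5. The nearest midpoints on either side were at least 300 bp apart at 42.0% of repeats (41.4% to 42.6%), against 29.2% of grid points, and were so more often than at the grid on 22 of 22 autosomes. The median of this gap was 270 bp (SD 12.6), against 220 bp at the grid (SD 9.51). By class it was 260, 260, 280, 300 and 330 bp. At 716 repeats (2.63%) no gap could be taken, since a side had no midpoint within 1000 bp, against 6.19% of grid points. No position at all lay within 1000 bp of 1.72% of repeats and 4.86% of grid points. Without these empty places, the centre lay in no interval at 41.3% of repeats and 37.9% of grid points, and the share was above that of the grid on 22 of 22 autosomes. A midpoint lay within 50 bp at 51.3% and 46.5%, and wide gaps were found at 42.8% and 30.7%. Within 1000 bp the median number of positions was 9 at the repeats and 9 at the grid points.

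Positions on and beside the repeats had low scores. The score is the authors' height of a position, with no unit given. Positions within 50 bp of the centre had a mean score of 13.5 (SD 0.590, n = 13647), against 15.4 (SD 0.954, n = 76287) for those 700 to 1000 bp away. The mean was 10.7 (SD 0.791, n = 1374) from 50 to 100 bp upstream and 12.9 (SD 0.614, n = 3873) downstream. Since scores in the list change with base composition, each position was also set against the mean of all autosomal positions with the same GC content. The difference was -1.90 (SD 0.404) at the repeat, -4.72 (SD 0.868) upstream and -2.32 (SD 0.684) downstream, each below 0 on 22 of 22 autosomes. In the flanks it was 0.169 (SD 0.318). Mean GC content at the repeat was 42.3% and in the flanks 41.9%. By class, the mean score within 50 bp was 13.8 at 15 to 17 units and 12.3 at 27 and more, where the flanks had 15.2 and 15.9.

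**Figure D4:**
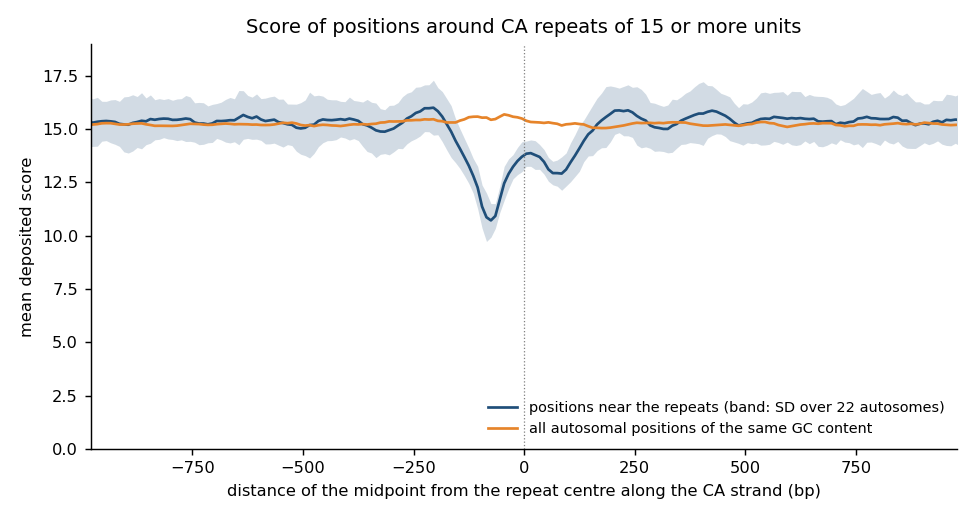
Mean deposited score of positions against the distance of their midpoint from the repeat centre along the CA strand in bp, with the SD over 22 autosomes as a band, and the mean of all autosomal positions with the same GC content. The score is 10.7 from 50 to 100 bp upstream and 13.5 at the centre, both below the same-GC mean of 15.4.

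Repeats differed among themselves by what adjoined the run and by how often their flanking sequence occurs. Adjoining units were sought as 3 or more in a row in the 16 bases next to the run. Where TA units adjoined upstream, the log2 density within 50 bp was -0.74 (SD 0.498, n = 1272), and where they adjoined downstream it was -0.42 (SD 0.366, n = 1273). It was 0.15 (SD 0.154, n = 3110) where GA or TC units adjoined and 0.19 (SD 0.0889, n = 21066) where none of these did. Words of 31 bases next to the run and 60 bp further out occurred once in the genome on both sides at 20427 repeats (74.9%). At these the log2 density was 0.22 (SD 0.0887). At the other 6839 it was -0.31 (SD 0.152), and it was below 0 on 22 of 22 autosomes. The word next to the run occurred once at 89.0% of repeats upstream and at 92.6% downstream. At the repeats with unique words, the log2 difference between the sides was -1.43 (SD 0.211) and the strand part was -1.46 (SD 0.252). The part that repeated flanking sequence has in these values was not tested.

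The location of a repeat and the GC content of its flanks made less difference to the density within 50 bp. The log2 density within 50 bp was 0.09 (SD 0.105) in introns and 0.14 (SD 0.0914) between genes. In quartiles of flanking GC content it was 0.12, 0.16, 0.12 and 0.05, with SDs between 0.0914 and 0.165. From 60 to 300 bp, with both sides folded together, the maximum was 1.16 times the flanks (SD 0.0752) at 205 bp in the second GC quartile. In the upper 2 it was 1.29 (SD 0.0475) at 185 bp and 1.30 (SD 0.0558) at 145 bp. In the lowest quartile the pooled density stayed below that of the flanks over this range, with a highest value of 0.924 (SD 0.0859) at 265 bp. The highest values of single autosomes had a mean of 1.04 there.

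Other simple repeats under the same rule had lower density at their centre. Within 50 bp of the centre, the log2 density was -0.46 (SD 0.156) at 3146 GA repeats of 15 or more units, -1.97 (SD 0.254) at 11136 A or T runs of 30 or more bases and -4.71 (SD 0.720) at 6928 TA repeats. Each was below the CA repeats on every autosome with a value, by -0.57 (SD 0.143) for GA repeats, -2.08 (SD 0.279) for A or T runs and -4.82 (SD 0.732, 21 autosomes) for TA repeats. CA repeats of 8 to 14 units, at 0.13 (SD 0.0607), did not differ from the longer ones beyond the spread over autosomes. Beside the run the long repeats were the emptier ones. Upstream the log2 density was -2.21 at the long and -1.05 at the short repeats, 1.15 higher at the short ones (SD 0.189), with the same direction on 22 of 22 autosomes. Downstream it was 0.47 higher at the short ones (SD 0.171).

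The A or T runs were about as empty upstream of the A strand as the long CA repeats, at -2.14 (SD 0.302), but they lacked the central maximum and had tall neighbours, at 1.68 times the flanks (SD 0.0848). A strand part was present at the GA repeats, at -0.75 (SD 0.435, below 0 on 19 of 20 autosomes with a value). At the A or T runs it was -0.48, within the spread over autosomes (SD 0.550), and below 0 on 19 of 22. The direction part was 1.04 (SD 0.475) at the GA repeats and 0.52 (SD 0.371) at the A or T runs. TA repeats read the same on both strands, so that they have a direction part only. Their lower-coordinate side exceeded the higher by 0.83 (SD 0.921, above 0 on 17 of 21 autosomes with a value), close to the 0.79 of the CA repeats. A part that follows the coordinates was thus not particular to CA repeats. Along the strand, the upstream minus downstream value was higher than that of the long CA repeats by 0.69 (SD 0.252) at the short CA repeats, 0.86 (SD 0.527) at the GA repeats and 0.96 (SD 0.558) at the A or T runs.

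**Figure D5:**
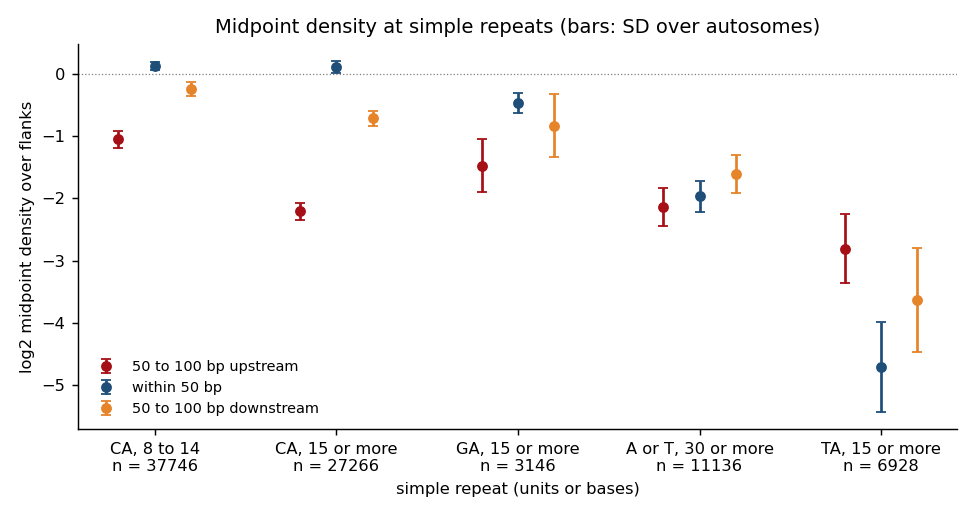
Log2 midpoint density over the flanks at 5 kinds of simple repeat, upstream, at the centre and downstream, with the SD over autosomes as bars. Upstream and downstream follow the CA, GA or A strand, and the genome direction for TA. The CA repeats alone have a central value above 0, and the long ones have the widest gap between the central and the upstream value.

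Single repeats varied widely around these means. Chromosome 8 was left out when single repeats were chosen, here and below. The 4 with the most units on the other autosomes lay in introns of protein-coding genes and had no midpoint within 50 bp. In AVPI1, the 59 units at chr10:97678882-97678999 lay between a midpoint 221 bp upstream with a score of 9.87 and one 159 bp downstream with a score of 17.3. In LNX2, 43 units at chr13:27583171-27583256 had midpoints 138 bp upstream and 92 bp downstream, with scores of 17.3 and 7.40. In SAMD4A, 41 units at chr14:54678434-54678515 had them 162 bp upstream and 193 bp downstream. In KDM2A, which encodes a histone demethylase, 40 units at chr11:67168584-67168663 had them 192 bp upstream and 198 bp downstream. The gaps across these 4 repeats were 380, 230, 355 and 390 bp.

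The 4 highest scores at a repeat were found at runs of 17 to 23 units, where the median of all repeats was 18. They were 59.2 at 17 units (chr12:113048991-113049024), 51.8 at 20 units (chr1:168398965-168399004), 50.6 at 17 units (chr11:19336277-19336310) and 48.1 at 23 units (chr12:52143914-52143959). Of all repeats, 57.2% lay in introns, and none of these 4 lay inside a gene. Their midpoints lay between 8 bp upstream and 25 bp downstream of the centre. GC content of their flanks was between 44.5% and 63.75%, above the median of all repeats. The widest gaps, among repeats with at least 6 positions within 1000 bp, were 1360 bp at 23 units (chr6:74771288-74771333) and between 1220 and 1230 bp at 3 others of 15 to 19 units. One of these, at chr1:20047719-20047756, lay in an intron of PLA2G5, which encodes a secreted phospholipase.

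Of 20 genes listed for pluripotency, for the heart or as genes with known repeats, 7 held a repeat. CACNA1C, the pore of the cardiac L-type calcium channel, held 7, the longest of 32 units at chr12:2277364-2277427. Its nearest midpoints lay 224 bp upstream and 216 bp downstream, with scores of 12.3 and 35.8. JARID2, a partner of the Polycomb repressive complex, also held 7, and its longest, of 27 units at chr6:15404520-15404573, had a midpoint 35 bp upstream of the centre with a score of 14.8. RYR2, the calcium release channel of heart muscle, held 9. The longest, of 26 units at chr1:237178417-237178468, had its nearest midpoints 169 bp upstream and 121 bp downstream.

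In LIN28B, an RNA-binding protein that blocks maturation of let-7, the longest of 3 repeats had 24 units, at chr6:105070593-105070640, with midpoints 155 bp to either side and scores of 17.3 and 19.7. The longest in PRDM16, a zinc finger factor, had 22 units at chr1:3225531-3225574, with midpoints 199 bp upstream and 51 bp downstream, the latter with a score of 32.1. MYH7, a myosin heavy chain of heart muscle, held 1 repeat of 25 units at chr14:23423438-23423487, with a midpoint of score 7.40 at 31 bp upstream. ACTN2, which anchors actin at the Z disc, held 1 of 19 units at chr1:236693178-236693215, with a midpoint of score 19.7 at 5 bp from the centre. At the 3 of these repeats with a midpoint within 50 bp, the scores of that midpoint ran from 7.40 to 19.7, around the median of the list. POU5F1, SOX2, NANOG and LIN28A were among the 13 genes that held none. The rule of 5000 bp from any transcript start leaves little or no room for a repeat in short genes. SOX2 is shorter than that distance and could hold none. The share of all genes that hold a repeat was not taken.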

How the data were processed

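MNase-seq of hiPSCs was analysed from a single list of nucleosome positions. The authors trimmed reads with Trimmomatic 0.40 (from the submitters' processing notes), aligned them to GRCh38, removed blacklisted regions and called positions on pooled libraries in the nucMACC workflow. The aligner, the caller and the runs pooled are not given in the sources used here. The deposited score is a signal, a height per position whose scaling is not stated, so that the depth behind a score is unknown. The 50-bp runs were not pursued by the authors.

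Repeats and transcript starts were read from the reference and GENCODE release 44, where the authors used release 48. Midpoints, 70 bp into each interval, were binned at 10 bp, averaged over 5 neighbouring bins and expressed as a multiple of the density found 700 to 1000 bp away. No values per sample exist in the list, so no test was made. Chromosome 8 was left out when named repeats were chosen. They were the 4 with the most units, the 4 with the highest score within 50 bp and the 4 with the widest gap. The longest in each of 20 listed genes that held one was added. Repeats, gene list and comparisons were chosen with earlier results of these data known. Python 3.11.15, NumPy 2.4.6, pandas 2.3.3, SciPy 1.17.1 and matplotlib 3.10.9 were used. The calculation of density within 50 bp and from 50 to 100 bp on either side was tested on simulated midpoints. These had no least spacing and no direction part. The other calculations were not tested in this way. Alternatives covered the positions, their weights, the flanks, the repeats used and the origin of distances.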

Additional observations from a re-analysis of the deposited data

How the results depend on the processing

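A value counts as moved here when it changed by at least its SD over autosomes. Of 49 alternatives, 29 left the value within that SD, 17 moved it and 3 turned its sign. The 20 that select repeats by strand, flanking words, adjoining units or a position within 1000 bp, or that bear on the difference between the sides, were chosen after seeing the data. The sign turned for the log2 density at the repeat, from 0.11 to -0.26 when positions under the median score were left out, -0.073 when each position was weighted by its score and -0.22 within 75 bp. This density moved to 0.30 with distances from the edge of the run, 0.44 within 25 bp, 0.22 with unique flanking words and 0.014 with CA on the plus strand. The longest class minus the shortest stayed below 0 under each of 9 alternatives, and moved to -2.08 with CA on the plus strand. The first maximum, at 165 bp with both sides folded, moved to 205 bp without the positions under the median score and to 205 bp when weighted by score, and to 190 bp in bins of 20 bp. Its height, 1.15 times the flanks, was 1.20 without those positions. The log2 score at the repeat went from -0.19 to -0.10 likewise, where low scores are dropped by construction. The median gap was then 570 bp, against 465 bp at the grid, and the share of repeats in no interval 78.0%, against 70.1%. That share was 36.8% with unique flanking words. The log2 difference between the sides, -1.50, was -0.73 with CA on the plus strand, -2.32 with TG on the plus strand, -2.28 without positions under the median score and -0.94 with midpoints moved by 20 bp. The causes were not tested. The alternative that keeps repeats with few masked flanks was not run, because the reference is written in capitals throughout. No paired analysis was possible because pooling left no replicates to pair. Depth per position is unknown, which limits what can be said of single repeats.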
